A study of Mus musculus with 4 samples.

Results

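The measurement described here is the difference between 2 genotypes in how the whole mouse brain responded to lipopolysaccharide (LPS), the endotoxin of Gram-negative bacterial membranes. For each gene the LPS response of a genotype was its level after LPS minus its level after phosphate-buffered saline (PBS). The response of wild-type brain was then subtracted from the response of brain from mice labelled Nav1.8CreROSA26DTA, called DTA below. A positive difference therefore stands for a more positive response in DTA and a negative one for a more positive response in wild-type. All 4 arrays of the series entered it, 1 for each combination of genotype and injection, and 16244 of 23462 genes on the array (69.2%) were measured on all 4.

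The groups were wild-type mice given PBS, DTA mice given PBS, wild-type mice given LPS and DTA mice given LPS. LPS was injected into the peritoneum at 20 mg/kg body weight and whole brains were collected 12 h after injection, per the labels' protocols, which give no separate time for PBS. No age, sex or strain background was given, and the wild-type labels name neither allele of the DTA mice, so carriage of Cre and of the toxin allele went together. Whether an array received RNA from 1 mouse or from several pooled mice is not stated in the labels, so an animal and its group cannot be told apart. With 1 array a group the difference has no replicate error and no test, and every value below is a description of these 4 arrays.

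Nav1.8 is a voltage-gated sodium channel encoded by Scn10a and found chiefly in nociceptors, the sensory neurons that signal pain and whose cell bodies lie in ganglia outside the brain. In Nav1.8CreROSA26DTA mice, Cre made under control of that gene switches on diphtheria toxin A from the ROSA26 locus and kills the cells of that lineage. LPS is sensed through Toll-like receptor 4 and sets off cytokine, chemokine, interferon and acute-phase programmes, in the brain first at its vessels, meninges and choroid plexus. Nociceptors release neuropeptides that act on immune cells, and the design allows the question whether a brain without their input responds to systemic LPS in the same way.

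Because the difference is built from 4 arrays, it can be read in another order: it equals the genotype difference (DTA minus wild-type) after LPS minus the genotype difference after PBS. A gene was put on the LPS side where the LPS arrays gave at least 0.75 of its difference, on the PBS side where they gave at most 0.25, and on both sides otherwise. Levels are log2 of the spot intensity minus the 75th percentile of the array, so a level of 0 lies at that percentile and 1 unit is 2-fold. Levels of different genes are not compared, since each probe has its own brightness per molecule.

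The 4 arrays shared 1 slide and 1 scan. Treatment went with the slide row and genotype with the slide column, so a position effect and a group effect cannot be told apart. Between 66.5% and 69.5% of 59305 spots an array were well above background and 0 were saturated. Spots of the same probe differed within an array by an SD of 0.0483 to 0.0530 over 299 probes printed as 10 spots, which gives a technical SD of 0.101 (log2) to a difference of responses from 1 spot per array. The brain label was checked against its markers: 23 of 23 pan-neuronal genes were measured on all 4 arrays at a median level between 4.99 and 5.17. Scn10a, the gene that drives Cre, stood at −2.20 and 0.08 in wild-type after PBS and LPS and at −2.54 and 0.55 in DTA, a difference of responses of 0.81 on this probe and 0.26 on another. Scn10a in the brain checks nothing about the loss of ganglion neurons, which were not measured. Gt(ROSA)26Sor, the non-coding transcript of the ROSA26 locus, was lower in DTA by 0.51 after PBS and by 0.52 after LPS, which leaves a difference of responses of −0.01, while a second probe gave 0.65.

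For most genes the responses of both genotypes were within 2-fold of each other. Over the 16244 genes the difference of responses had a median of −0.03 and quartiles of −0.21 and 0.14 (log2), and 87.0% of genes lay within 0.5 of 0. The responses of the 2 genotypes, which share no array, had a Pearson r of 0.730 and a Spearman rho of 0.490 across genes, which are not independent of each other and share slide and scan. A difference of at least 2-fold was found for 157 genes in the direction of a more positive response in DTA (0.967% of genes) and for 249 genes in the direction of a more positive response in wild-type (1.53%). At 4-fold these were 11 and 24 genes. These shares are the background against which the counts of the gene lists below are set. At such shares a list of the sizes used below can hold 0 genes past 2-fold without differing from genes at large.

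**Figure D1:**
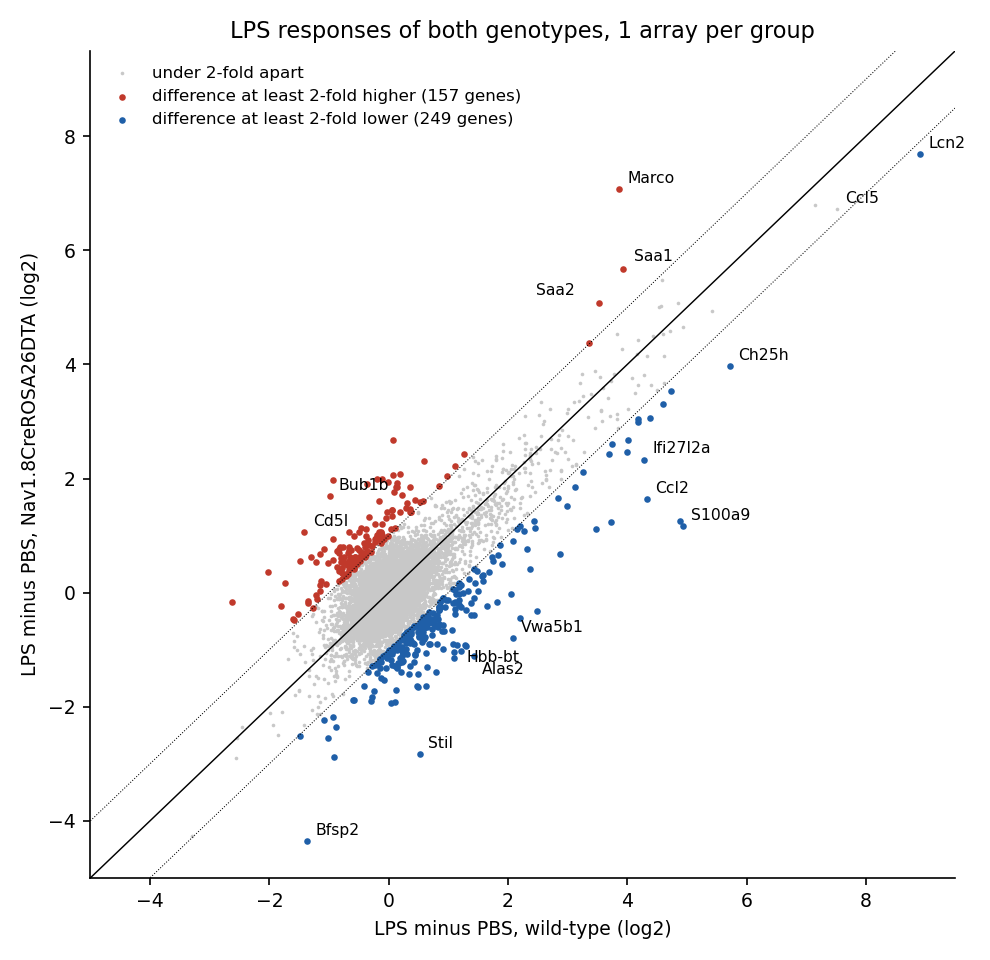
LPS minus PBS (log2) in wild-type on the horizontal axis and in DTA on the vertical axis for 16244 genes, with the line of equal responses and dotted lines 2-fold either side of it. The 157 genes at least 2-fold above the line and the 249 at least 2-fold below it flank a cloud in which 87.0% of genes lie within 0.5 of equality; Marco lies farthest above and S100a9 farthest below.

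Dim genes made up much of both tails. When the genes were split by mean level into 4 bins of 4061, 6.65% of the dimmest bin were at least 2-fold apart in either direction, against 2.07%, 0.763% and 0.517% of the next bins up to the brightest. Where a gene had several measured probes, they pointed the same way for 32 of 35 genes in the lower tail and for 10 of 16 in the upper tail. All probes passed 2-fold for 10 of those 35 and for 1 of those 16.

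The PBS arrays gave much of the lower tail. Of the 249 lower genes, 99 (39.8%) lay on the PBS side, 26 (10.4%) on the LPS side and 124 (49.8%) on both. Those 99 genes were higher in DTA than in wild-type already after PBS, by a median of 1.30, and their median genotype difference after LPS was −0.02. Of the 157 higher genes, 39 (24.8%) lay on the PBS side, 28 (17.8%) on the LPS side and 90 (57.3%) on both. For the 28 genes on the LPS side the median genotype difference was 0.08 after PBS and 1.45 after LPS. Over all genes, 176 (1.08%) were at least 2-fold higher and 67 (0.412%) at least 2-fold lower in DTA after PBS, and after LPS these were 104 (0.64%) and 51 (0.314%).

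**Figure D2:**
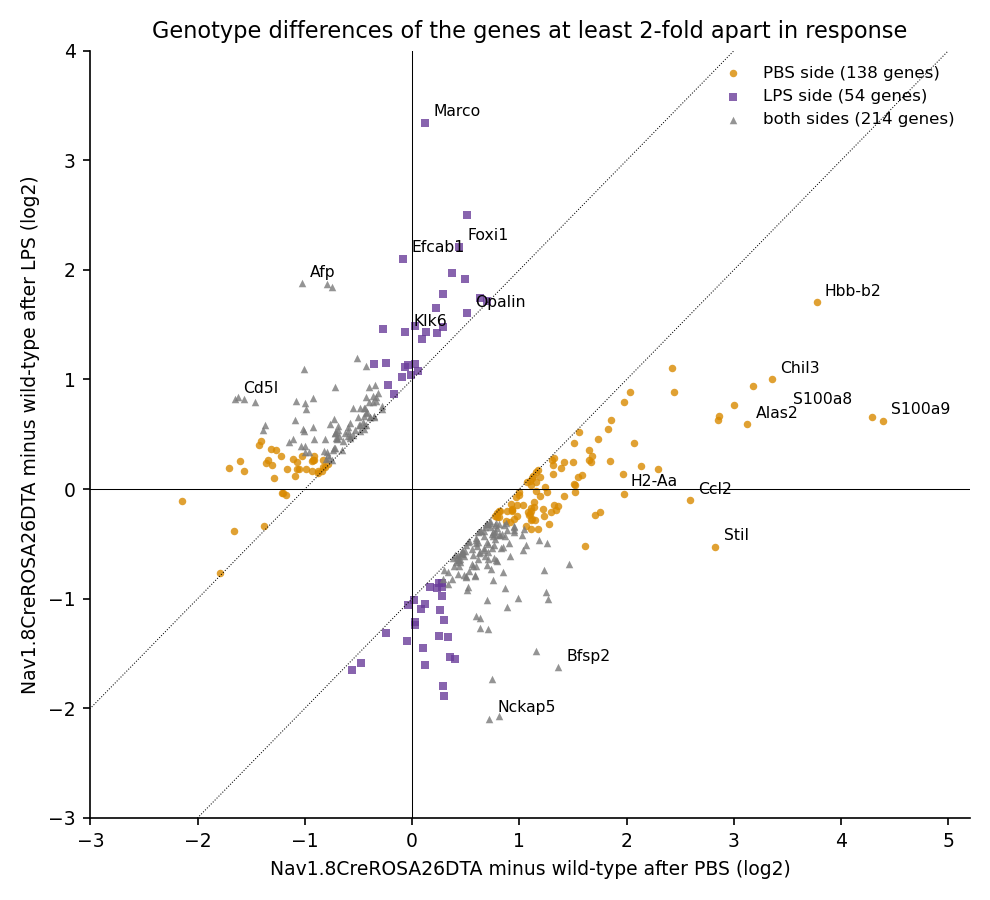
DTA minus wild-type after PBS (horizontal, log2) and after LPS (vertical, log2) for the 406 genes whose responses were at least 2-fold apart, with the difference of responses equal to the vertical minus the horizontal value and dotted lines at 2-fold. Circles, squares and triangles mark the PBS side (138 genes), the LPS side (54) and both sides (214); S100a9, S100a8 and the haemoglobin gene Hbb-b2 stand far to the right at PBS, and Marco alone above 3 after LPS.

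In terms of the responses themselves, 54 of the 249 lower genes were at least 2-fold up with LPS in wild-type and under 2-fold in DTA, 26 were up in both genotypes and 66 were under 2-fold in wild-type and at least 2-fold down in DTA. Another 95 were under 2-fold in both genotypes, so 2 responses under 2-fold added up to their difference. Of the 157 higher genes, 48 were under 2-fold in wild-type and up in DTA, 22 were down in wild-type and under 2-fold in DTA, 6 were up in both and 80 were under 2-fold in both. Over all 16244 genes, 542 (3.34%) were at least 2-fold up and 98 (0.603%) down with LPS in wild-type, and 485 (2.99%) up and 218 (1.34%) down in DTA. Genes whose response averaged over both genotypes was at least 2-fold numbered 461 upward, of which 291 (63.1%) had the larger response in wild-type, with medians of 1.75 in wild-type and 1.58 in DTA and a median difference of −0.16. For these 461 genes the median genotype difference was 0.30 after PBS and 0.12 after LPS, each between separate arrays of PBS-injected or LPS-injected mice. The median difference of all genes was itself −0.03, so the share of 63.1% depends on the scaling of the arrays. With the deposited table of values, scaled otherwise, 506 genes were upward and 58.9% of them were larger in wild-type. Their median difference was then −0.09, against 0.003 for all genes. Of 88 genes downward, 66 had the larger response in DTA and 22 in wild-type, with a median difference of −0.34.

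Genes of neutrophils and monocytes, white blood cells that carry granule proteins and calprotectin, held the lowest differences of all genes. Of 29 listed genes 18 were measured on all 4 arrays, and 7 were at least 2-fold lower and 0 higher, with a median of −0.33. S100a9, a subunit of calprotectin, stood at −3.19 in wild-type after PBS, 1.20 in DTA after PBS, 1.74 in wild-type after LPS and 2.36 in DTA after LPS. The wild-type PBS array was the low one and the other 3 lay between 1.20 and 2.36, which gave a response of 4.93 in wild-type and 1.17 in DTA and a difference of −3.76 on the PBS side.

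S100a8, the other calprotectin subunit, followed the same order with −4.82, −0.53, 0.06 and 0.72 for wild-type PBS, DTA PBS, wild-type LPS and DTA LPS, a difference of −3.63. Chil3, a chitinase-like protein of myeloid cells, stood at −4.67, −1.32, −1.20 and −0.20 in that order of arrays, a difference of −2.35. In both genes DTA exceeded wild-type under either injection, by 4.29 and 3.35 after PBS and by 0.66 and 1.01 after LPS. Mpo, the granule enzyme myeloperoxidase, stood high on the DTA PBS array alone, at −3.21 against −5.18, −5.06 and −4.92 on wild-type PBS, wild-type LPS and DTA LPS, a difference of −1.83.

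Lcn2 encodes lipocalin 2, an iron-sequestering acute-phase protein made by neutrophils, endothelium and astrocytes. Its response was the highest of the genes measured on all 4 arrays in either genotype, from −3.78 to 5.13 in wild-type and from −1.93 to 5.76 in DTA. DTA was therefore higher by 1.86 after PBS and by 0.63 after LPS, and the difference of −1.23 lay on the PBS side. Camp, a granule antimicrobial peptide, was also among the 7 genes at least 2-fold lower, at −1.09. The 11 genes under 2-fold apart lay between −0.58 for Elane and 0.50 for Csf3r, with Il1b, the cytokine interleukin 1 beta, at −0.29 from −4.36, −4.49, −3.38 and −3.81 in the order wild-type PBS, DTA PBS, wild-type LPS, DTA LPS.

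Genes of red blood cells and platelets had the lowest list median, −1.70 over 12 of 19 genes measured on all 4 arrays, with 7 genes at least 2-fold lower and 0 higher. Hba-a2, an alpha-globin gene, stood at 5.23 in wild-type after PBS, 8.09 in DTA after PBS, 6.53 in wild-type after LPS and 7.16 in DTA after LPS. Hbb-bt, a beta-globin gene, stood at 2.63, 5.64, 3.73 and 4.49 in the same order. Alas2, the first enzyme of haem synthesis in red-cell precursors, stood at −2.30, 0.83, −0.87 and −0.28.

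Each of these genes was highest on the DTA PBS array and lowest on the wild-type PBS array, with both LPS arrays between them. They were up with LPS in wild-type, by 1.29, 1.09 and 1.43 for Hba-a2, Hbb-bt and Alas2, and down in DTA, with responses of −0.94, −1.15 and −1.11. The differences were −2.23, −2.24 and −2.53, all on the PBS side, and those of Hba-a1 and Hbb-b1 were −2.19 and −2.23. Globin probes share sequence with the neighbouring copies of the same gene, so which globin gene a value belongs to is uncertain. As a median over the list, DTA exceeded wild-type by 1.90 after PBS and by 0.44 after LPS.

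Haemoglobin RNA in a whole brain is read as a marker of blood cells. The amount of blood or of reticulocytes in the tissue was not measured, and its part in this list was not tested. In bulk tissue more cells of a type and more RNA per cell cannot be told apart. The blood markers moved on the same arrays as the myeloid, fibroblast, interferon and MHC class II genes described here, high in DTA after PBS, and their part in those results was not tested. Of 19 listed lymphocyte markers 6 were measured. DTA exceeded wild-type by a median of 0.45 after PBS and 0.11 after LPS, and 1 gene, Cd79b of the B-cell receptor, was at least 2-fold higher under both injections, by 1.51 after LPS and by more after PBS. In the difference of responses 0 of the 6 were at least 2-fold apart in either direction, and the differences ran from −0.43 for Lck, a T-cell kinase, to 0.02 for Gzma, a granule protease.

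**Figure D3:**
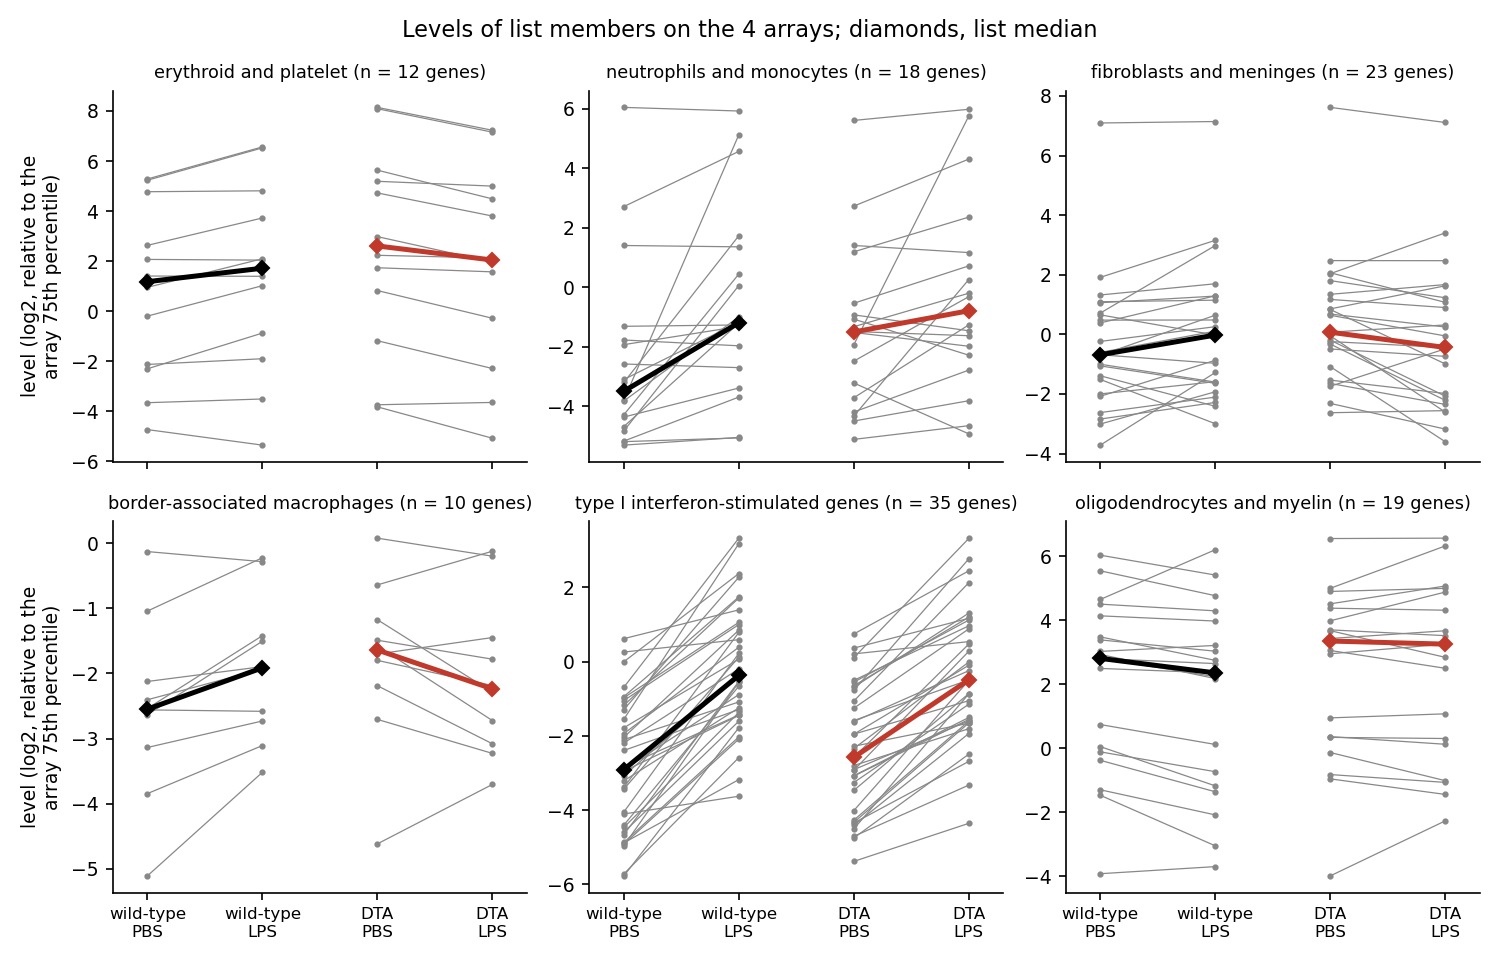
Levels of the measured members of 6 gene lists (grey, log2 relative to the 75th percentile of the array), with the LPS and PBS arrays of a genotype joined and diamonds at the list median. Erythroid, fibroblast and border macrophage medians lie higher in DTA than in wild-type after PBS (2.61 against 1.18, 0.07 against −0.68 and −1.64 against −2.55), and the myelin median lies higher in DTA after LPS (3.26 against 2.36).

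Fibroblast and meningeal genes, which code for collagens and other products of the sheets that wrap brain and vessels, were the list with the most genes at least 2-fold lower, 15 of 23 measured, with 0 higher and a median of −1.10. Col1a1 and Col1a2 encode the chains of type I collagen. Col1a1 stood at −2.08 in wild-type after PBS, −0.49 in DTA after PBS, −0.87 in wild-type after LPS and −0.74 in DTA after LPS, and its 3 probes gave differences from −1.46 to −1.31. Col1a2 stood at 0.39, 1.803, 1.29 and 1.23 in that order, a difference of −1.48. In both, wild-type was low after PBS and the genotypes differed by 0.13 or less in size after LPS.

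Igf2, an insulin-like growth factor of the leptomeninges, stood at −0.68, 0.84, −0.97 and −0.99 for wild-type PBS, DTA PBS, wild-type LPS and DTA LPS. Here it was the DTA PBS array that stood apart, with the other 3 between −0.99 and −0.68, and its 2 probes gave −1.55 and −1.54. Fmod, the collagen-binding fibromodulin, was down with LPS in both genotypes, by 1.02 in wild-type and by 2.56 in DTA, a difference of −1.53. Foxc2, a transcription factor of mesenchyme, differed from these in having both sides: DTA was higher by 0.52 after PBS and differed by −0.89 after LPS. Over the whole list the median genotype difference was 0.70 after PBS and −0.19 after LPS, with 6 genes at least 2-fold higher after PBS, a direction that 1.08% of all genes had, and 0 genes 2-fold apart after LPS.

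Border-associated macrophages live in those same sheets and around vessels. All 10 of their measured genes, of 12 listed, had a difference below 0, with 5 at least 2-fold lower and a median of −0.998. Mrc1, the mannose receptor, stood at −2.56 in wild-type after PBS, −1.58 in DTA after PBS, −2.58 in wild-type after LPS and −2.72 in DTA after LPS. Cd163, the receptor for haemoglobin bound to haptoglobin, stood at −3.14, −2.19, −2.73 and −3.08, and Pf4, a chemokine of these cells and of platelets, at −2.12, −1.18, −1.90 and −2.29. In all of these the DTA PBS array was the highest of the 4, and the differences were −1.12, −1.30 and −1.34. Cbr2 had a difference of −1.41 on one probe and −0.25 on another, and Ms4a7 of −1.26 and −0.91.

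Choroid plexus epithelium, the tissue that secretes cerebrospinal fluid, had 3 of 11 measured genes at least 2-fold lower and 0 higher, with a median of −0.53, and 10 of its 21 listed genes were not measured on all arrays. The 3 were Lbp, which carries LPS to its receptor, Kcnj13, an inward-rectifier potassium channel, and Wdr86. Wdr86 gave −1.59 on one probe and −0.75 on another. With normexp, another background correction, Lbp (−1.04) kept 2-fold, whereas Kcnj13 (−0.93) and Wdr86 (−0.82) did not. Lbp was up with LPS by 3.69 in wild-type and by 2.42 in DTA, and Kcnj13 up by 0.51 in wild-type and at −0.76 in DTA. Endothelial genes of inflamed vessels had 4 of 18 measured at least 2-fold lower and 0 higher, at a median of −0.25. They were Ch25h, Cd74, Lcn2 and Vwf, the last of which encodes von Willebrand factor and stood at 0.66 and 1.27 in wild-type after PBS and LPS and at 1.33 and 0.73 in DTA. Lists share members, so these counts are not separate results. Lcn2 is also counted with neutrophil, acute-phase and reactive astrocyte genes, Cd74 with class II genes and Ch25h with cholesterol genes. Ch25h, which makes 25-hydroxycholesterol, was up by 5.72 in wild-type and by 3.97 in DTA, a difference of −1.75 of which both sides gave a part (1.26 at PBS and −0.49 at LPS).

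Barrier genes of resting brain endothelium and the genes of pericytes and smooth muscle had 0 of 25 and 0 of 14 measured genes at least 2-fold apart, with medians of −0.21 and −0.35. With 0.967% of all genes higher and 1.53% lower, counts of 0 in lists this small do not set them apart. Abcb1a, the drug efflux pump of the barrier, was down with LPS by 1.19 in wild-type and by 1.82 in DTA. Tagln, a smooth-muscle protein, lay at a difference just short of 2-fold in the lower direction, with DTA higher by 1.01 after PBS.

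Chemokines, secreted proteins that guide leukocytes, had 6 of 19 measured genes at least 2-fold lower and 0 higher, with a median of −0.38, and 12 of the 31 listed were not measured on all arrays. Ccl2, which draws monocytes, stood at −5.35 in wild-type after PBS, −2.77 in DTA after PBS, −1.02 in wild-type after LPS and −1.12 in DTA after LPS. The LPS arrays were level and the PBS arrays 2.59 apart, so that the response was 4.33 in wild-type and 1.64 in DTA and the difference of −2.69 lay on the PBS side. Ccl12, a close relative that binds the same receptor, differed on both sides, with −3.62, −2.47, −1.43 and −2.91 in that order and a difference of −2.64. In this gene DTA after LPS was near DTA after PBS, with a response of −0.44 against 2.19 in wild-type.

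Ccl17, a ligand of T-cell receptor CCR4, was up by 1.11 in wild-type and at −0.16 in DTA, a difference of −1.27. Ccl4 had a difference of −2.14 from levels between −5.60 and −3.94, near the lower limit of measurement. The chemokines with the highest responses differed less. Cxcl10, induced by interferon, was up by 7.15 in wild-type and by 6.80 in DTA, a difference of −0.35. Its PBS levels of −5.91 in wild-type and −5.48 in DTA lay near the lower limit of measurement (−6.33 and −5.95). That limit may hold the Cxcl10 PBS levels together, which was not tested. Ccl5 was up by 7.51 and by 6.72, a difference of −0.79 on the PBS side, where DTA was 1.52 higher. Chemokine receptors had 0 of 10 measured genes 2-fold apart and a median of −0.14.

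Type I interferon-stimulated genes, which encode antiviral effectors and sensors, had smaller responses in DTA as a group. Of 35 measured genes 31 had a difference below 0, 7 were at least 2-fold lower and 0 higher, and the median was −0.56 from a median response of 2.70 in wild-type and 1.86 in DTA. The median genotype difference was 0.47 after PBS and −0.16 after LPS, and 0 of 35 genes were 2-fold apart after LPS. At 2-fold up with LPS the genotypes were close in number, with 32 of the 35 genes in wild-type and 30 in DTA.

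Ifi27l2a, a mitochondrial interferon-induced protein, stood at −4.05 in wild-type after PBS, −2.34 in DTA after PBS, 0.23 in wild-type after LPS and −0.01 in DTA after LPS, a difference of −1.95. Oas2, an oligoadenylate synthetase, stood at −5.77, −4.41, −1.78 and −1.94 in that order, a difference of −1.52. Its wild-type PBS level lay near the lowest well-above-background level of that array (−6.33). In Ifi27l2a and Oas2 the LPS arrays lay within 0.25 of each other and the wild-type PBS array was the low one. Rsad2, which encodes the antiviral enzyme viperin, had the same form with −4.59, −3.08, −1.60 and −1.56 and a difference of −1.46.

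Irf7, the interferon regulatory factor that amplifies the programme, and Trim30a, a ubiquitin ligase, had differences of −1.18 and −1.17 to which both sides added. Irf7 stood at −1.55, −0.77, 3.18 and 2.77 for wild-type PBS, DTA PBS, wild-type LPS and DTA LPS, and its 2 probes gave −1.33 and −1.18. Trim30a stood at −4.92, −4.35, −2.09 and −2.69. For both, DTA was the higher genotype after PBS and the lower one after LPS.

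The interferon-stimulated response element, a motif in promoters of interferon-induced genes, has a core of GAAA, any 2 bases and GAAA again. Searched on both strands in the 250 bases before the start of transcription (RefSeq, GRCm38.p6), it was found for 14 of the 31 type I genes with a promoter in the table and for 3.04% of 27025 promoters of the same length. Of the 7 genes at least 2-fold lower, 4 had a RefSeq promoter here and 2 of these, Rsad2 and Trim30a, held the core. Both are printed below because they differ in side, Rsad2 on the PBS side and Trim30a on both; the capitals mark the match, which in each lies on the strand opposite to the one shown. The core spans bases 120 to 111 before the start in Rsad2 (chr12:26456453-26456702, minus strand) and 36 to 27 before it in Trim30a (chr7:104465194-104465443, minus strand).
Rsad2: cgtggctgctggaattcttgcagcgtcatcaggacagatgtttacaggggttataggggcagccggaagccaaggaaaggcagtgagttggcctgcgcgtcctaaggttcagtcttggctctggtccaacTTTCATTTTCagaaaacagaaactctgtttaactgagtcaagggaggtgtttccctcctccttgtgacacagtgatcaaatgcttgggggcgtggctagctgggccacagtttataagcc
Trim30a: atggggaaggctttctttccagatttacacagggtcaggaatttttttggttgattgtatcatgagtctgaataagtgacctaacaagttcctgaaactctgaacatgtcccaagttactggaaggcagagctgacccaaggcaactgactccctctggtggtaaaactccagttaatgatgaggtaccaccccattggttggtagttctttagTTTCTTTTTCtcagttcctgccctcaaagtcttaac
A match of letters is a description and no measurement of binding.

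MHC class II genes present peptides to helper T cells and are expressed by macrophages, dendritic cells and B cells. The list that joined them with the interferon-gamma-inducible GTPases had 4 of 20 measured genes at least 2-fold lower and 0 higher, at a median of −0.47, and the 4 were all of the class II kind. H2-Aa stood at −5.80 in wild-type after PBS, −3.82 in DTA after PBS, −5.69 in wild-type after LPS and −5.73 in DTA after LPS. H2-Eb1 stood at −1.91, −0.16, −1.88 and −2.09 in the same order. In these the DTA PBS array was higher by about 2 units than each of the other 3, which lay together, so that the response was near 0 in wild-type (0.11 and 0.03) and −1.91 and −1.93 in DTA. For H2-Aa those other levels lay near the lower limit of measurement. The lowest well-above-background levels were −6.33, −5.91 and −5.98 on wild-type PBS, wild-type LPS and DTA LPS. That limit may hold the H2-Aa levels together, which was not tested.

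H2-Ab1 and Cd74, the invariant chain, shared this high DTA PBS array, at −0.58 and −1.51, against −2.24 and −3.03 in wild-type after PBS, −1.65 and −1.92 in wild-type after LPS and −1.40 and −1.89 in DTA after LPS. Their differences were −1.41, with 4 probes of H2-Ab1 between −1.48 and −1.33, and −1.49, all on the PBS side. Genes of class I presentation and the immunoproteasome, set beside these with no test between lists, had 0 of 21 measured genes 2-fold apart, a median of −0.08 and extremes of −0.50 for Psmb8 and 0.99 for H2-Q4.

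Class II promoters are known for a conserved W, X and Y box region, the last of which is a CCAAT element bound by NF-Y and was searched for in the form CTGATTGG on both strands. It was found for 2 of the 4 class II genes that had a RefSeq promoter here, against 4.07% of 27025 promoters. The promoters of H2-Aa (chr17:34287824-34288073, minus strand) and H2-Eb1 (chr17:34305617-34305866, plus strand), which gave the lowest class II differences, are printed with the box in capitals, at bases 51 to 44 and 62 to 55 before the start.
H2-Aa: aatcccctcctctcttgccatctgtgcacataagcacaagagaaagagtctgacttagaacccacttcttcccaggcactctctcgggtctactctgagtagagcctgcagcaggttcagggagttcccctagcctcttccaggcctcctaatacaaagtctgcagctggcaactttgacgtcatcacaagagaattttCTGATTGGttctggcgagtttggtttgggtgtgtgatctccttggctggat
H2-Eb1: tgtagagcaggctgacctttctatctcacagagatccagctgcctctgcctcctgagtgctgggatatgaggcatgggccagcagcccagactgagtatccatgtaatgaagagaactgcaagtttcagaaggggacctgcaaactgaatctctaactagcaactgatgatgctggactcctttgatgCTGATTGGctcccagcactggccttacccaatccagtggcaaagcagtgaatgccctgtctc
No measurement here bears on what occupies these boxes.

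Few genes had a higher difference through the LPS arrays, and Marco had the highest of all. It encodes a scavenger receptor of macrophages that binds bacteria. Marco stood at −4.57 in wild-type and −4.45 in DTA after PBS, level within 0.12, and at −0.72 in wild-type and 2.63 in DTA after LPS. The response was 3.86 in wild-type and 7.08 in DTA, a difference of 3.22 on the LPS side, from 1 probe.

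Saa1 and Saa2, acute-phase apolipoproteins made mainly by liver, were the acute-phase genes with higher differences, 2 of 24 measured genes, with 1 (Lcn2) lower and a list median of 0.06. Saa1 stood at −1.78 in wild-type after PBS, −2.05 in DTA after PBS, 2.16 in wild-type after LPS and 3.62 in DTA after LPS. The difference of 1.73 lay on the LPS side, where DTA was 1.46 higher. Saa2 stood at −3.33, −4.34, 0.20 and 0.73, a difference of 1.55 to which both sides added, with DTA lower by 1.01 after PBS.

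The transcripts of these genes are alike, so a probe of one may also bind the other, and their promoters are alike as well: 238 bases were identical in an alignment of the 250 bases before each start. Acute-phase genes are known targets of C/EBP factors, and the half-site pair TTGCNNAA was searched for on both strands; it was found in both promoters and in 9.55% of 27025. They are printed to show how far these neighbours on chromosome 7 match, with the half-site pair in capitals at bases 182 to 175 and 183 to 176 before the start (Saa1, chr7:46742981-46743230, minus strand; Saa2, chr7:46751583-46751832, plus strand).
Saa1: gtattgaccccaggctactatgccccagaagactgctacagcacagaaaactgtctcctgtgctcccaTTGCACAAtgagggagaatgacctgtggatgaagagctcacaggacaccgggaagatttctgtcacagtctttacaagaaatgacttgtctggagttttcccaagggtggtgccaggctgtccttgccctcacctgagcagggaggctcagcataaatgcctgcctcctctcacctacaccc
Saa2: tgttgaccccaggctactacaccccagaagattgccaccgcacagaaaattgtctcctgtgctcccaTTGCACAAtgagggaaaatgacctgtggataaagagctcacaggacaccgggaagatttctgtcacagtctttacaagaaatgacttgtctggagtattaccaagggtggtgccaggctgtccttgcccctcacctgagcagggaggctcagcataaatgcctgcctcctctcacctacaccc
The related Saa3 was dim on both PBS arrays and is given with such genes below.

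Oligodendrocyte genes, which build the myelin sheath of axons, were the cell-type list with the highest median, 0.44 over 19 of 19 genes measured, and 17 of the 19 lay above 0. At 2-fold 4 genes were higher and 0 lower. The list's median response was −0.62 in wild-type and −0.04 in DTA, and DTA exceeded wild-type by a median of 0.35 after PBS and 0.90 after LPS. After LPS 8 of the 19 genes were at least 2-fold higher in DTA, where 0.64% of all genes were.

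Opalin, a membrane protein of myelin-forming cells, stood at −1.46 in wild-type after PBS, −0.95 in DTA after PBS, −3.04 in wild-type after LPS and −1.44 in DTA after LPS. The wild-type LPS array was the low one, and the difference of 1.09 lay on the LPS side. Klk6, a secreted serine protease of oligodendrocytes, had the other form, with DTA after LPS alone high at −2.26 against −3.91, −3.98 and −3.69 on wild-type PBS, DTA PBS and wild-type LPS, a difference of 1.50.

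Ermn, a cytoskeletal protein of mature oligodendrocytes, was the exception of the 4 in lying on the PBS side, with 5.55, 4.52, 4.77 and 5.07 in the order wild-type PBS, DTA PBS, wild-type LPS, DTA LPS and a difference of 1.33. Genes of precursor cells of the lineage had 0 of 11 measured genes 2-fold apart and a median of 0.14. Enpp6, which marks newly forming oligodendrocytes, was higher in DTA by 1.04 after PBS and by 1.60 after LPS, which made a difference of 0.55.

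Microglia, the resident macrophages of brain tissue, had a lower difference in their resting-state genes, with 16 of 18 measured genes below 0 and a median of −0.35 from median responses of −0.27 in wild-type and −0.78 in DTA. The gene past 2-fold was P2ry13, a purine receptor, which stood at −1.59 in wild-type after PBS, −1.35 in DTA after PBS, −2.67 in wild-type after LPS and −3.58 in DTA after LPS. It was down with LPS in both genotypes and farther down in DTA, a difference of −1.14 on the LPS side. Genes of activated microglia and macrophages were mixed, with 2 of 20 higher (Marco and Gpnmb) and 2 lower (Lgals3 and Ms4a7), at a median of −0.30.

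Reactive astrocyte genes had high responses in both genotypes, a median of 2.38 in wild-type and 2.42 in DTA over 23 genes, with 1 gene (Lcn2) at least 2-fold lower and a median difference of −0.32, 15 of the 23 lying below 0. Resting astrocyte genes had 0 of 16 genes 2-fold apart, 14 of the 16 below 0 and a median of −0.18, and ran from −0.55 for Fgfr3 to 0.03 for Sox9. Ciliated ependymal cells had 1 of 11 genes higher (Spag6, 1.32) and 1 lower (Ccdc153, −1.56), at a median of 0.19. With normexp, another background correction, neither was 2-fold apart, Spag6 at −0.08 and Ccdc153 at −0.39.

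Cytokine and signalling genes measured on all 4 arrays were mostly under 2-fold apart, as were most genes on the array. Proinflammatory cytokines and receptors had 1 of 33 measured genes at least 2-fold lower and 0 higher, at a median of −0.19. Another 8 listed genes were not measured on all 4 and are outside these counts. Among them Csf3 and Il1rn, dim on both PBS arrays, were 1.58 and 1.36 higher in DTA after LPS. Il12b was dim on DTA LPS alone, and its difference was at most −0.73. The gene past 2-fold was Osm, oncostatin M, which was up by 1.45 in wild-type and by 0.17 in DTA. Tnf stood between −1.87 and −1.64 on all 4 arrays, a difference of −0.34, and Il6 was not measured on all 4. The NF-kB pathway with its feedback inhibitors and the LPS receptor complex had 1 of 28 lower, Lbp (already given), at a median of −0.01. The inflammasome and cell death list had 0 of 18 2-fold apart and a median of −0.01, with responses in both genotypes at a median of 0.43.

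The prostaglandin and fever list had 2 of 15 genes lower, Slco2a1, the prostaglandin transporter of endothelium, at −1.47, and Ptgdr, a prostaglandin D2 receptor, at −1.37, with a median of −0.08. The kynurenine pathway, which degrades tryptophan, had 0 of 14 2-fold apart and a median of −0.16. Ido1, its first enzyme, was up by 0.96 in wild-type and by 1.19 in DTA, a difference of 0.23. Kmo, kynurenine 3-monooxygenase, stood at −4.97 and −3.98 in wild-type after PBS and LPS and at −5.10 and −5.01 in DTA, a difference of −0.89 on the LPS side, while Kynu was not measured on all arrays. Of the REG lectins and their receptor Extl3, 2 of 8 were measured, Reg1 at −0.96 on the LPS side and Extl3 at 0.22, and Reg3g was not measured on all 4.

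The extracellular proteases and their inhibitors had 0 of 18 genes 2-fold apart, at a median of −0.12, with Adamts9 at −0.97 and Plaur at 0.47. Cholesterol and oxysterol genes had 1 of 25 lower, Ch25h, at a median of −0.17. The metallothionein, iron and oxidative stress list had 1 of 27 higher, Hmox1, haem oxygenase 1, which stood at 1.40 in wild-type after PBS and −0.40 in DTA after PBS, and at 0.61 and −0.16 after LPS, a difference of 1.03 on the PBS side. Hmox1 was thus low on the array on which the haemoglobin genes were high.

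Several lists of stress and hormone programmes had no gene 2-fold apart. Over all genes 0.967% were higher and 1.53% lower, so counts of 0 do not set these lists apart from other genes. Glucocorticoid-responsive genes had a median response of 0.93 in wild-type and 0.86 in DTA, a median difference of −0.05 and 0 of 28 genes 2-fold apart, with Plin4 at 0.76 and Lyve1 at −0.68 as the extremes. Counts of 0 at 2-fold were likewise found for 27 immediate early genes (median difference 0.01, from median responses of 0.18 in wild-type and 0.42 in DTA), 19 clock genes (−0.10), 22 heat shock and chaperone genes (0.06), 22 genes of the integrated and endoplasmic reticulum stress responses (0.04) and 25 hypoxia and vasoactive genes (−0.16). Nr4a2, an immediate early transcription factor, was the highest of these at 0.85 on the LPS side.

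Neuronal and housekeeping lists also had medians close to 0, as did all genes (−0.03). Their counts at 2-fold are near the shares over all genes, 0.967% higher and 1.53% lower. The pan-neuronal list had 0 of 23 genes 2-fold apart and a range from −0.42 for Tubb3 to 0.35 for Nefm. Glutamate and GABA receptor subunits (0 of 32, median 0.09), sodium channels (0 of 13, 0.10), mitochondrial respiratory subunits (0 of 31, 0.02), cytosolic ribosomal proteins (0 of 33, −0.02) and core histones (0 of 12, −0.05) had no gene 2-fold apart. The potassium channel list had 1 of 31 lower, the choroid plexus gene Kcnj13, at a median of 0.08. Genes at and beside the transgene loci had 0 of 9 and a median of −0.01, and sex-linked genes 0 of 7 and −0.18.

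Markers of brain regions were set beside these lists. They are few, so counts of 0 or 1 say little beside the 0.967% of all genes higher and 1.53% lower. The striatum (0 of 13 genes), olfactory bulb (0 of 12), and thalamus and midbrain (0 of 13) lists had no gene 2-fold apart, with medians of −0.11, −0.08 and −0.14. The cerebellum and hindbrain list had 1 of 10 lower (Zic1, −1.06), cortex and hippocampus 1 of 17 (Fibcd1, −1.26) and hypothalamic peptides 1 of 18 (Pmch, −1.30), with medians of −0.14, −0.21 and −0.07. Zic1 is also expressed by meninges. The pituitary list had 0 of 5 measured genes 2-fold apart and a median of −0.22, but its hormone genes Prl and Gh were dim on an array and are given with the bounds below.

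The list of nociceptor and sensory neuron genes had 2 of 12 measured genes higher and 0 lower, at a median of 0.05. Those cells have their bodies outside the brain, but the listed genes are not confined to them. Tac1 is also on the striatum list and Nefh on the pan-neuronal list, so these values cannot be assigned to nociceptors. The 2 higher genes were Calca, the gene of calcitonin gene-related peptide, and Avil, advillin. Calca stood at −2.77 and −4.29 in wild-type after PBS and LPS and at −3.40 and −3.78 in DTA. Avil lay at levels between −5.57 and −4.88. Their differences were 1.14 and 1.12 on both sides. With normexp neither was 2-fold apart, Calca at 0.30 and Avil at −0.08, and the list's median was −0.13. Cell cycle genes had 2 of 20 higher, Bub1b (2.67) and Ccnb1 (2.47), and 0 lower, at a median of −0.10. The other 18 were under 2-fold apart, and both genes lay near the lower limit of measurement on at least 1 array, Bub1b between −5.40 and −3.52 and Ccnb1 between −5.42 and −2.79.

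**Figure D4:**
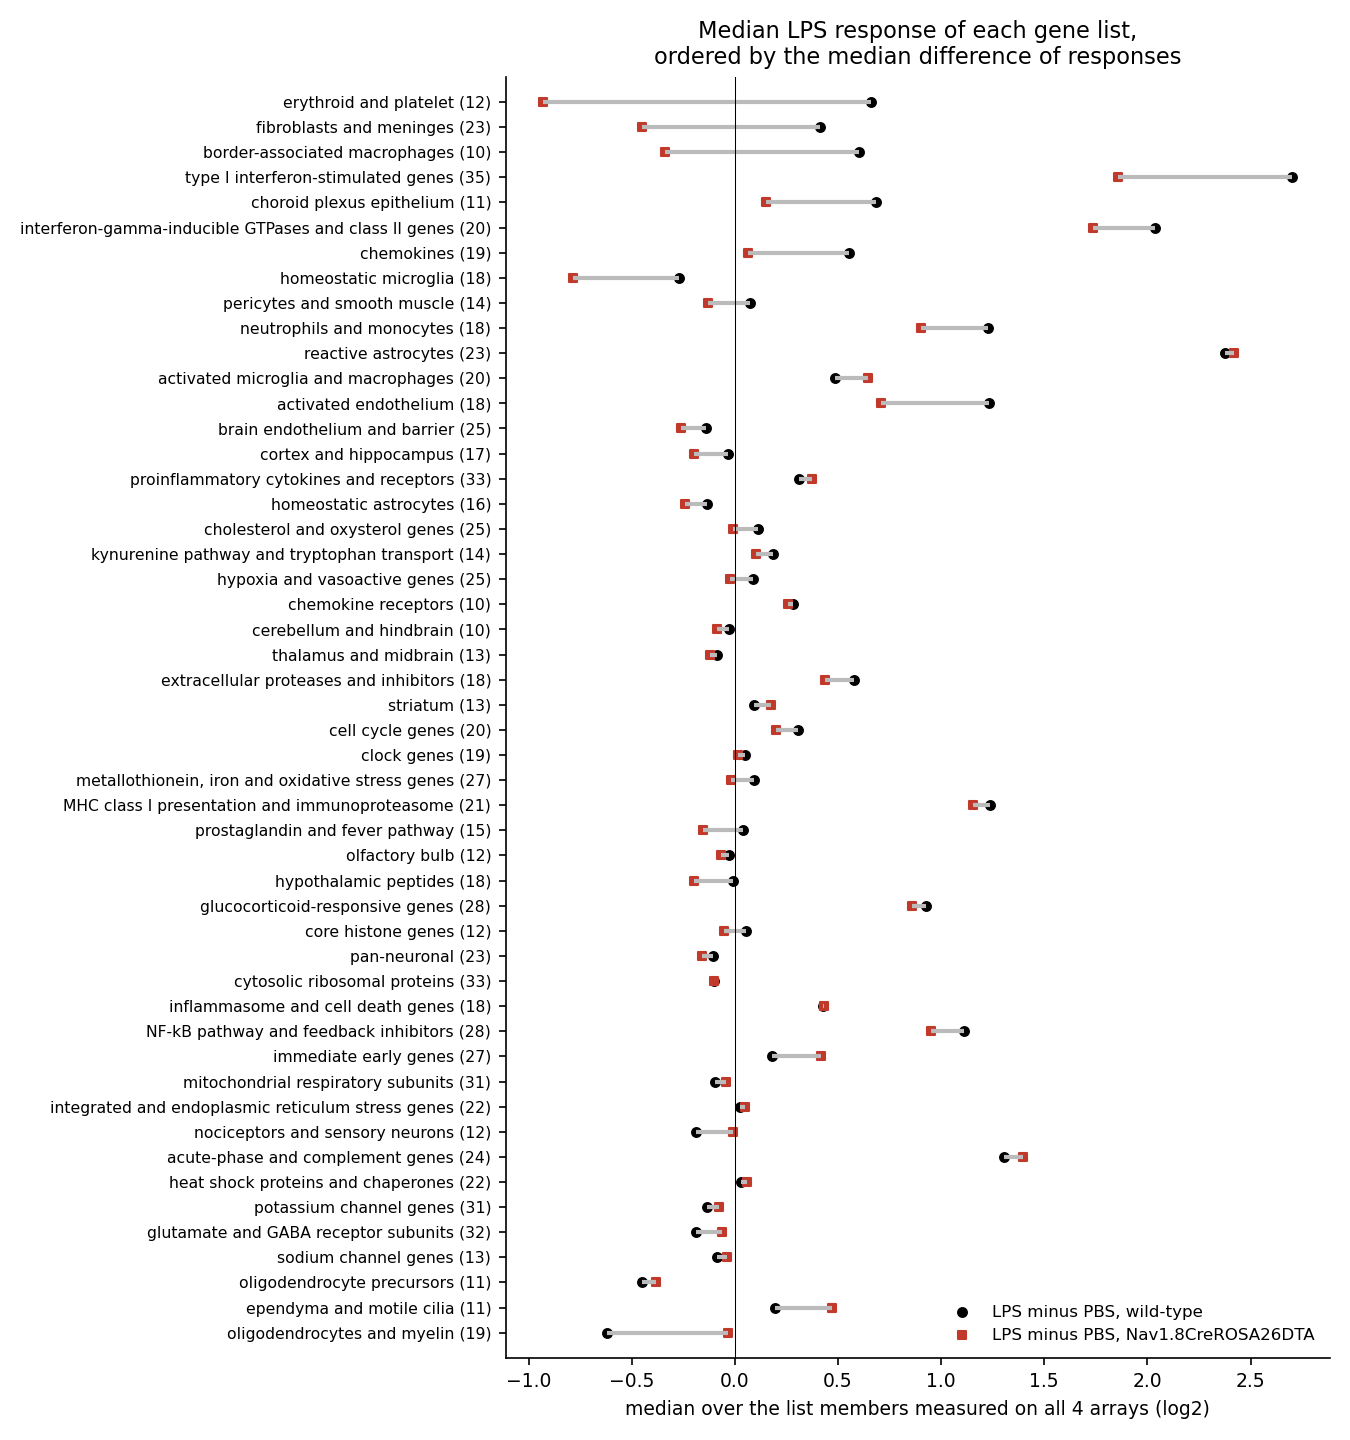
Median LPS response (log2) in wild-type (circles) and DTA (squares) over the measured members of the 50 gene lists with at least 10 measured genes, ordered by the median difference of responses, with the number of measured genes in brackets. Erythroid, fibroblast and border macrophage lists lie to the right of 0 in wild-type and to the left of it in DTA, interferon-stimulated genes stand at 2.70 in wild-type and 1.86 in DTA, and the oligodendrocyte list at the bottom is higher in DTA, at −0.62 in wild-type and −0.04 in DTA.

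Beyond the lists, genes of no shared group made up many of the extreme values. In the lower tail Stil, a centriole gene, stood at −5.01 in wild-type after PBS, −2.18 in DTA after PBS, −4.48 in wild-type after LPS and −5.01 in DTA after LPS, a difference of −3.35 from a single high array. Bfsp2, a lens filament protein, was down with LPS by 1.37 in wild-type and by 4.36 in DTA, a difference of −2.99. Vwa5b1 and Nckap5 were up in wild-type, by 2.08 and 2.48, and at −0.80 and −0.33 in DTA, with the wild-type LPS array alone high; the differences were −2.88 and −2.81. Scgb3a1, a secretoglobin, and Fbln7, a fibulin, followed at −2.48 and −2.27 on both sides.

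On the LPS side of the lower tail stood Fut4-ps1 (−2.19), Morn3 (−1.88), Cpt1b (−1.72), Lvrn (−1.69), Ccnt2 (−1.59), Ecrg4 (−1.49) and Prg4 (−1.34). Prg4, the lubricating proteoglycan lubricin, stood at −1.30 and −1.34 after PBS and at 2.71 in wild-type and 1.32 in DTA after LPS, so that its response was 4.01 against 2.67. Ccnt2 gave −0.11 on another probe.

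The highest differences after Marco were of genes with levels mostly under −3. Afp, alpha-fetoprotein, stood at −4.53, −5.55, −5.45 and −3.57 for wild-type PBS, DTA PBS, wild-type LPS and DTA LPS, a difference of 2.91. Prss16, a thymic protease, stood at −4.12, −4.87, −4.04 and −2.19, a difference of 2.60. In both the DTA LPS array was the highest and the DTA PBS array the lowest. Cd5l, a protein secreted by macrophages, was at −1.41 with LPS in wild-type and at 1.06 in DTA, a difference of 2.48. Mup19, one of the major urinary proteins, whose copies share sequence, had 2.26.

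Among brighter genes, Vapb, a membrane-tethering protein of the endoplasmic reticulum, gave 1.95 on its brightest probe and 0.11 on another, so the gene as a whole has no single value. Treml2 gave 1.85 and −1.30 on its 2 probes and Efcab1 2.18 and 0.20. Nxph3, a neurexophilin of neurons, stood at 1.93, 1.58, 1.56 and 2.70, with the DTA LPS array alone high and a difference of 1.50 on the LPS side. On the same side stood Foxi1 (1.77) and Mkrn3 (1.60), each with levels under −2.9 on all arrays. On the PBS side of the upper tail were Peg3os (1.90), Ccdc172 (1.87), Il22ra1 (1.83), Dlx4 (1.73), Il5ra (1.68), Pinx1 (1.60) and Trpm1 (1.60), and Tatdn2 (1.89) lay on both.

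**Figure D5:**
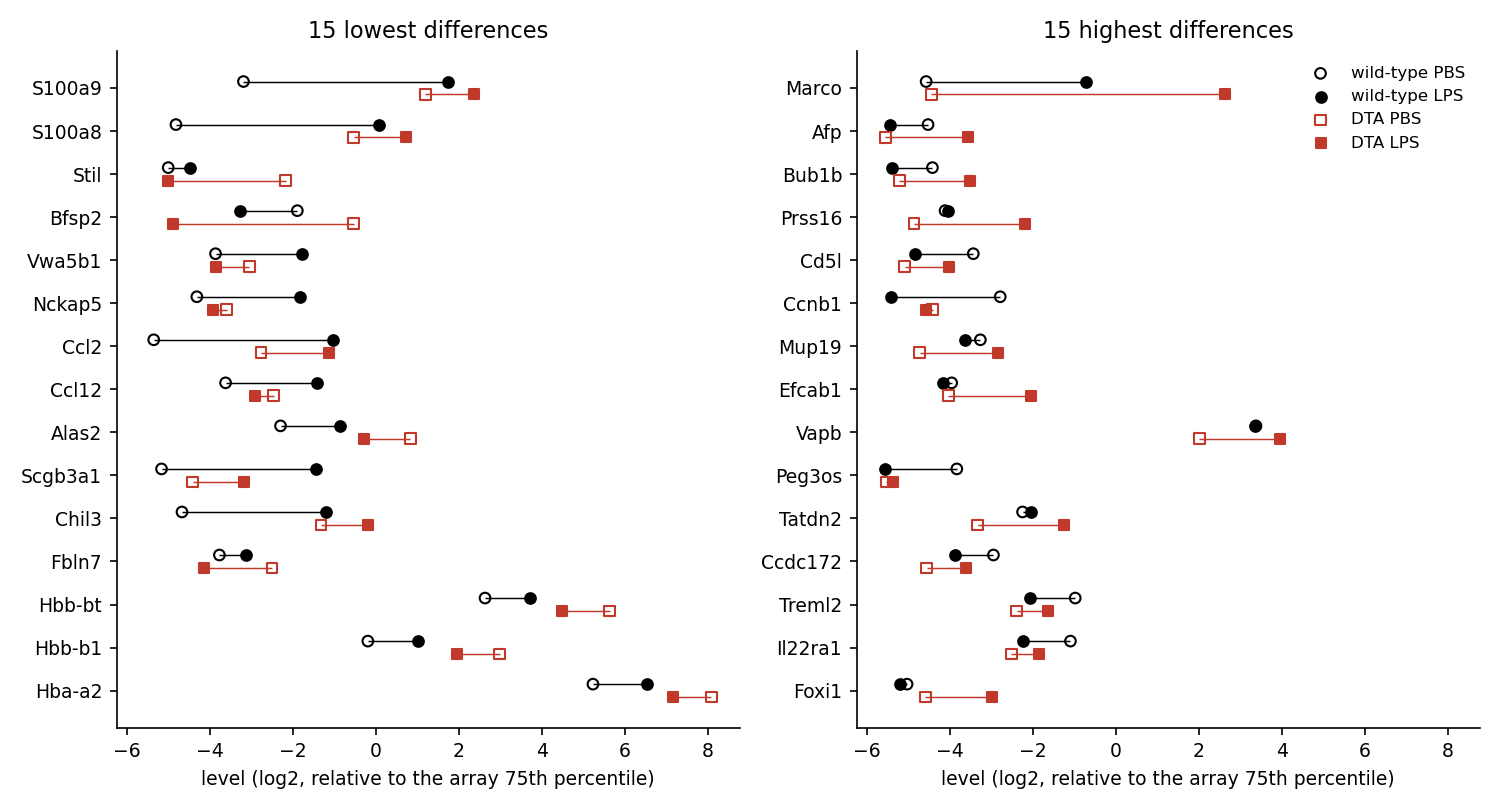
Levels (log2 relative to the 75th percentile of the array) of the 15 named genes with the lowest and the 15 with the highest difference of responses; open symbols are PBS and filled symbols LPS, circles wild-type and squares DTA. For S100a9, S100a8, Ccl2 and Chil3 the open circle (wild-type PBS) lies far to the left of the other 3 symbols, and for Marco the filled square (DTA LPS) lies far to the right at 2.63.

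Genes dim on an array have only a bound on their difference, computed with the dim array set to the gene's own signal or, if that was higher, to the lowest signal that counted as well above background there. A total of 420 genes were dim on exactly 1 array. These were 63 on wild-type PBS, 110 on DTA PBS, 165 on wild-type LPS and 82 on DTA LPS. The bound passed 2-fold for 53 in the higher and 45 in the lower direction. The dim array fixed that direction: only lower for wild-type PBS or DTA LPS, only higher for DTA PBS or wild-type LPS. Having 1 low array selected these genes, unlike the genes measured on all 4, of which 0.967% were higher and 1.53% lower. The farthest bound was that of Prl, prolactin, dim on the wild-type PBS array and at −2.29 on DTA PBS, −3.65 on wild-type LPS and −4.46 on DTA LPS, which put the DTA response at least 28.8-fold lower than the wild-type one. Gh, growth hormone, was likewise dim on wild-type PBS and at −2.39, −5.15 and −4.35 on the others, at least 8.89-fold lower. Both are hormones of the anterior pituitary.

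Retnlg and Ngp, genes of neutrophil granules and their precursors, were dim on wild-type PBS too and at least 7.15-fold and 6.14-fold lower. A gene dim on that array can pass 2-fold only as lower, so sharing the direction of S100a8 and S100a9 is not a separate result. Ebf2 (11.6-fold), Ooep (9.21-fold) and Myl3 (6.70-fold) had bounds in the same direction, Ebf2 and Ooep being dim on DTA LPS. In the other direction Gm33201 (13.8-fold), Gm35822 (7.86-fold) and Olfr31 (7.70-fold), an odorant receptor, were dim on wild-type LPS and at least that much higher, and Mup18 was dim on DTA PBS and at least 5.46-fold higher; the first 3 lie outside the rule for named genes and were chosen after their values were seen. Retnlg and Ngp stood within 0.1 of each other in the 2 genotypes after LPS, at −2.57 and −2.52 and at −3.91 and −3.85.

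A further 103 genes were dim on both PBS arrays and measured on both LPS arrays, so for them the genotypes can be compared after LPS only; 136 genes were the reverse, dim on both LPS arrays and measured on both PBS arrays. Of the 103 genes, DTA was at least 2-fold higher after LPS for 22 and at least 2-fold lower for 5. Over the 16244 genes measured on every array these shares after LPS were 0.64% and 0.314%. Being dim on both PBS arrays selected the 103 genes, and many of their LPS levels lay near the lower limit of measurement. Their counts are therefore not comparable with those shares. Saa3, an acute-phase protein made outside the liver, stood at 4.72 in wild-type and 6.20 in DTA after LPS, 1.48 higher in DTA, as was the direction of Saa1. Mmp3, the matrix metalloproteinase stromelysin 1, stood at −0.74 and 1.32, and Csf3, the growth factor of neutrophils, at −3.31 and −1.73.

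Cybb, the NADPH oxidase subunit, was 2.34 higher in DTA after LPS, Clec4e, the receptor Mincle, 1.77 higher, and Msr1, a scavenger receptor like Marco, 1.73 higher. Ubd, a ubiquitin-like modifier induced by interferon and TNF, was 2.53 higher and Pilrb2 2.21 higher. Akap4 and Rxfp2 differed the other way, by −2.02 and −1.86. These genes were picked by the size of this genotype difference, so their values describe the end of a ranking.

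Probes without a gene name had another balance. Of 34916 probes measured on all 4 arrays, 781 were at least 2-fold higher and 494 lower. Probes named through RefSeq, 23890 of them, had 0.984% higher and 1.57% lower, close to the shares for genes. Probes for AK accessions, cDNA clones of a large mouse collection, had 7.16% higher and 1.11% lower of 2166, with a median of 0.24 and a median genotype difference of −0.23 after PBS and 0.00 after LPS. Probes for Ensembl transcripts had 5.13% higher and 0.810% lower of 4815, and probes for genomic positions 3.31% and 1.61% of 2175. AK, Ensembl and genomic probes were dimmer, at median levels of −3.23, −2.51 and −3.07 against −0.65 for RefSeq-named probes. In the dimmest of 4 bins of probes 9.72%, 8.63% and 4.78% of them were higher, against 3.33% of RefSeq-named ones. In that bin 1.67%, 1.62% and 3.36% were lower, against 4.58%. Which transcripts the probes without a gene name detect was not analysed here.

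With another background correction (normexp), which pulls dim signals together, 71 of the 249 lower and 41 of the 157 higher genes were still at least 2-fold apart. Of 96 named genes past 2-fold, 47 were under it with normexp. Among the genes described above, S100a9 (−2.93), S100a8 (−2.08), Alas2 (−2.17), Hba-a2 (−2.22), Col1a2 (−1.31), H2-Eb1 (−1.53), Ccl12 (−1.78), Ccl2 (−1.38), Ifi27l2a (−1.19), Marco (2.95), Saa1 (1.64), Ermn (1.39) and Nxph3 (1.45) kept 2-fold, whereas Rsad2 (−0.75), Oas2 (−0.65), Trim30a (−0.68), H2-Aa (−0.90), Lcn2 (−0.54), Osm (−0.58), Mrc1 (−0.80), Cd163 (−0.87), P2ry13 (−0.85), Klk6 (0.72), Opalin (0.69), Saa2 (0.75), Afp (0.48), Bub1b (0.42) and Ccnb1 (0.60) did not.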

How the data were processed

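Per the labels' protocols, TRIzol was used for RNA extraction and an Agilent low-input kit for Cy3 labelling. The deposited spot intensity (processed signal) is background-subtracted and detrended within the array by Agilent Feature Extraction, 11.0.1.1 per the submitters' processing notes and 12.0.3.1 per the file headers. A deposited table of values, also intensities, equalled that signal times 1 factor per array (1.82, 2.09, 1.83 and 1.57 for wild-type PBS, DTA PBS, wild-type LPS and DTA LPS), within 0.1% for at least 59304 of 59305 spots; its column medians were 97.2, 91.4, 103 and 102, and the origin of the factors was not found in the labels or headers.

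Log2 intensity was taken minus the 75th percentile of each array over non-control spots (612, 514, 634 and 726 in the same order). Outlier spots (81 to 96 an array) were left out and spots of a probe averaged. Of 56605 probes, 33767 (59.7%) had 1 symbol through RefSeq accessions (GRCm38.p6, used for names). Each gene took the probe that was well above background on most arrays or, among equals, the brightest. Measured means well above background on all 4 arrays; 1702 genes were so on 1 to 3 arrays and 5516 on none. The scripts were tested on simulated data. R 4.3.3, limma 3.58.1 and Python 3.11.15 were used.

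With 1 array a group no test was made; the number of arrays limits the precision. Named genes were the 15 highest and 15 lowest differences and the 8 highest and lowest of each side (passing over models known only by number and odorant and pheromone receptors), up to 5 members of each list past 2-fold a direction or else its extremes, genes at least 2-fold up in one genotype and down in the other, the 8 farthest bounds, the 8 largest genotype differences among genes dim on both PBS arrays, and a few always named. Members, lists and alternatives were chosen with earlier results of these data known. Alternatives were normexp, scaling to the median, quantile normalization, cyclic loess, the deposited table, other filters on dim probes, the mean over a gene's probes, and all probes. The files used give a median spot signal, so normexp (offset 50) ran on that signal and not on the mean signal that had been planned. A few genes that this rule names are not reported here.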

Additional observations from a re-analysis of the deposited data

Results flagged for a closer look

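In 5 genes the 2 genotypes responded at least 2-fold in opposite directions, a difference that was not tested. Alas2 was at 1.43 with LPS in wild-type and −1.11 in DTA (log2), Hbb-bt at 1.09 and −1.15, and Hbb-b1 at 1.21 and −1.02; these are genes of red blood cells, and all stood highest on the DTA PBS array. Myh6, a cardiac myosin heavy chain, was at 1.09 in wild-type and −1.04 in DTA, with levels between −5.52 and −3.91. Cd5l ran the other way, at −1.41 in wild-type and 1.06 in DTA.

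Outside the genes measured on all 4 arrays, 103 genes were dim on both PBS arrays and measured on both LPS arrays, a signal above the level of the PBS arrays. The reverse, dim on both LPS arrays and measured on both PBS arrays, held for 136 genes.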

How the results depend on the processing

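No paired analysis was possible because each group holds 1 array, and leaving out any array leaves no difference of responses. With normexp, 45 genes were at least 2-fold higher and 71 lower (157 and 249 in the main setting), shared upward responses numbered 268, of which 187 were larger in wild-type, and shared downward ones 30, of which 3 were. With no filter on dim probes these counts were 1093 and 1291, 1116 and 604, and 418 and 172. With only genes at least 4-fold above the lowest well-above-background signal, 69 were higher and 131 lower, and 55 responses were downward, 13 of them larger in wild-type. Over all probes 781 were higher and 494 lower. Because dim probes decide these counts, signal over background limits both tails. Scaling to the median, quantile normalization, cyclic loess, the deposited table and the mean over probes kept every count within 1.5 times, at 138 to 177 higher and 218 to 299 lower. The share of 2-fold genes that were lower was 61.3%, and 54.2% with no filter on dim probes to 68.4% with cyclic loess for genes; over all probes it was 38.7%. Of 96 named genes past 2-fold, 46 stayed past it in every alternative, 47 did not with normexp and 4 did not in another. Those whose sign turned with normexp were Avil (−0.0791), Peg3os (−0.00284) and Spag6 (−0.0808), and the cause was not tested. Over all genes past 2-fold, named or not, 16 of the 157 higher and 0 of the 249 lower turned sign with normexp. The median of all genes moved by under 0.1 between settings. Of 55 list medians, 12 changed sign in some alternative, each within 0.220 of 0 at the main setting.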
